A study of Mus musculus with 30 samples.

Results

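The 52 genes described here code for the proteins that copy chromosomal DNA and that make its building blocks, and their RNA was followed in mouse forelimb buds after WNT secretion was blocked. They were taken by name from standard knowledge of replication, with earlier results of these data known, and stand in 9 role groups. All 52 are autosomal protein-coding genes among the 50833 genes of the count table. All embryos were wild type, of the Swiss Albino strain, and came from mothers injected once at E10.5 with DMSO in buffer or with C59, a small molecule that inhibits porcupine, the enzyme WNT ligands need in order to be secreted. C59 was given from a DMSO stock thinned in a carrier that also held methylcellulose and detergent, which the controls did not get, so effects of C59 and of this carrier cannot be told apart. Forelimb buds were taken after a delay of 1, 6, 12, 18 or 24 h, with 3 libraries in each of the 10 groups, each made from polyA RNA of 1 pair of limb buds. The study drew on embryos of both sexes and staged C59-treated limb buds by the hours since injection and by bud size and shape.

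A chromosome is copied in S phase of the cell cycle, after origins have been licensed in G1 by loading the ring-shaped MCM helicase. At the start of S phase the loaded helicase is activated by CDC45 and the GINS complex, primase and the polymerases follow, and a sliding clamp holds the polymerases on the DNA while the deoxynucleotide pool is refilled by enzymes such as ribonucleotide reductase. Transcription of many of these genes rises at the G1/S boundary, where E2F factors are released from the RB family, and the early limb bud is known as a fast-growing mesenchyme in which a large share of cells is in S phase. In bulk tissue, fewer cells in S phase and less RNA per cell cannot be told apart, which applies to each level given below.

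Total counts ran from 18188636 to 38974885 per library, and the 52 genes took 0.513% to 0.877% of them. *Axin2*, a direct WNT target used here as a check of the drug, was at 108, 118 and 104 CPM (counts scaled to library size) in the DMSO libraries at 6 h and at 28.96, 29.2 and 26.5 in the C59 libraries (log2 fold change -1.97 ± 0.06, adjusted p = 7.55e-11). At 1, 12, 18 and 24 h its log2 fold change was -0.19, -1.45, -0.16 and -0.08, with an adjusted p below 0.05 at 1, 6 and 12 h. Over all libraries the hindlimb genes *Pitx1* and *Tbx4* summed to 2.38 to 6.19 FPKM (fragments scaled to transcript length and library size). The sum was 357 to 607 for 6 forelimb mesenchyme markers. Summed Y-linked FPKM was 0 in the 3 DMSO libraries at 6 h and 19.8 to 33.2 in the 3 C59 libraries, so at that time sex and treatment cannot be told apart. At 1 h it was 0.0469 to 9.03 against 21.2 to 38.2. The biological coefficient of variation, edgeR's measure of the spread between replicates, was 12.5% at 18 h and 5.41% to 7.52% at the other times. In 5 groups 1 library stood out by the size of its difference from both others, with no limit set for this. These were DMSO replicate 1 at 1, 6 and 18 h, C59 replicate 3 at 18 h and C59 replicate 2 at 24 h. Between such a library and the others the chi-square of the counts per degree of freedom was 22.9 to 46.6, against 4.20 to 12.8 between the other 2 libraries and 3.49 to 7.81 in the remaining groups. C59 replicate 3 at 18 h had *Prim1* at 40.9 CPM against 62.6 and 57.4 and *Ccne2* at 14.6 against 32.2 and 27.8.

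The levels of the 52 genes spanned a wide range. In the DMSO group at 1 h, *Pcna*, the sliding clamp, had 171 ± 5.13 FPKM (mean ± SD, n = 3) and *Rrm2*, the S-phase subunit of ribonucleotide reductase, had 170 ± 6.89 FPKM. These neighbours in the order did not differ beyond their spread. *Mcm7* followed with 136 ± 5.44 FPKM, *Mcm5* with 116 ± 1.99 and *Uhrf1*, which recruits maintenance methylation to new DNA, with 112 ± 2.93. *Mcm6* (97.6 ± 3.51), *Rrm1* (96.6 ± 5.001), *Mcm2* (96.3 ± 2.45), *Dut* (95.2 ± 1.38) and *Mcm3* (94.3 ± 4.62) lay within each other's spread. The low end of the order held *Gins3* with 10.1 ± 0.89 FPKM, *Orc1* with 8.33 ± 0.45 and *E2f2* with 4.91 ± 0.22, which were separated by more than their SDs. FPKM is per length of transcript and was used for every comparison between genes, while CPM was used for the same gene between libraries.

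The flap endonuclease gene *Fen1* had 55.4 ± 1.66 FPKM in this group but only 0.756 to 2.60 CPM over the 30 libraries, and 84.2% of its exon bases are shared with genes of the opposite strand. Its counts are therefore uncertain, and its values below are given in FPKM. Of the other members, 16 overlapped another gene with some exon bases, of which *Gins2* with 67.3% and *Chaf1a* with 52.5% were the only ones above 50%, and reads from such stretches may not have been counted for either gene.

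Nearly all genes of the machinery were lower at 12 h after C59. The question asked at each time was whether the 3 C59-treated libraries differed from the 3 DMSO controls, and a change was called where edgeR's quasi-likelihood test gave an adjusted p below 0.05 over all tested genes. At the earliest time 1 of 52 members was called, *Ung*, which was higher (1.14% of 13076 tested genes were called higher and 1.61% lower). At 6 h 14 members were lower (11.4% of tested genes) and 0 higher (8.2%). At 12 h 51 were lower (25.5%) and 0 higher (22%). At 18 h 18 were lower (3.62%) and 0 higher (3.46%), and by 24 h 5 were higher (2.88%) and 0 lower (3.56%). At 1 h, 4 members had an unadjusted p below 0.05 in the lower and 6 in the higher direction, beside 1116 and 1104 of 13076 tested genes. At 24 h it was 0 and 11 members, beside 1577 and 1439 of 13675 tested genes.

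The counts at 6, 18 and 24 h moved with single libraries. At 6 h, leaving out DMSO replicate 1, 2 or 3 gave 8, 23 or 9 called members, and leaving out C59 replicate 1, 2 or 3 gave 6, 6 or 7, in place of 14. At 18 h, where 18 were called, 31 were called without C59 replicate 3, 4 without C59 replicate 2, and 3, 3 or 2 without DMSO replicate 1, 2 or 3. At 24 h, where 5 were called, there was 1 without any single DMSO library, 3 without C59 replicate 2 and 9 without C59 replicate 3. At 12 h the count stayed between 50 and 51. The calls kept without each library in turn were 6 of 14 at 6 h, 2 of 18 at 18 h (*Mcm10* and *Rrm2*) and 1 of 5 at 24 h (*Mcm7*), and the call of *Ung* at 1 h was kept. 

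At the 5 times in order, the median log2 fold change of the 52 genes was 0.02, -0.10, -0.62, -0.35 and 0.07, beside medians of 0.00, 0.01, 0.02, 0.00 and 0.00 over all tested genes. Without each library in turn the 12 h median lay between -0.66 and -0.58 and the 18 h median between -0.38 and -0.31.

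The summed level shows the size of the dip on the CPM scale. In DMSO libraries the 52 genes summed to 9217 ± 146, 8490 ± 114, 8255 ± 264, 7411 ± 147 and 6529 ± 27.5 CPM at the 5 times in order (mean ± SD, n = 3). After C59 the sums were 9320 ± 77.3, 7961 ± 16.7, 5247 ± 137, 6122 ± 266 and 6805 ± 174 CPM. The groups did not overlap in this sum at 6, 12, 18 and 24 h, and the C59 group was the lower one at 6, 12 and 18 h and the higher one at 24 h. The gap at 24 h was narrow, with a highest DMSO sum of 6559 CPM and a lowest C59 sum of 6604 CPM. *Mcm7* alone had 245, 176 and 246 CPM in DMSO and 356, 341 and 302 in C59 libraries there. The sum without it is not given.

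**Figure D1:**
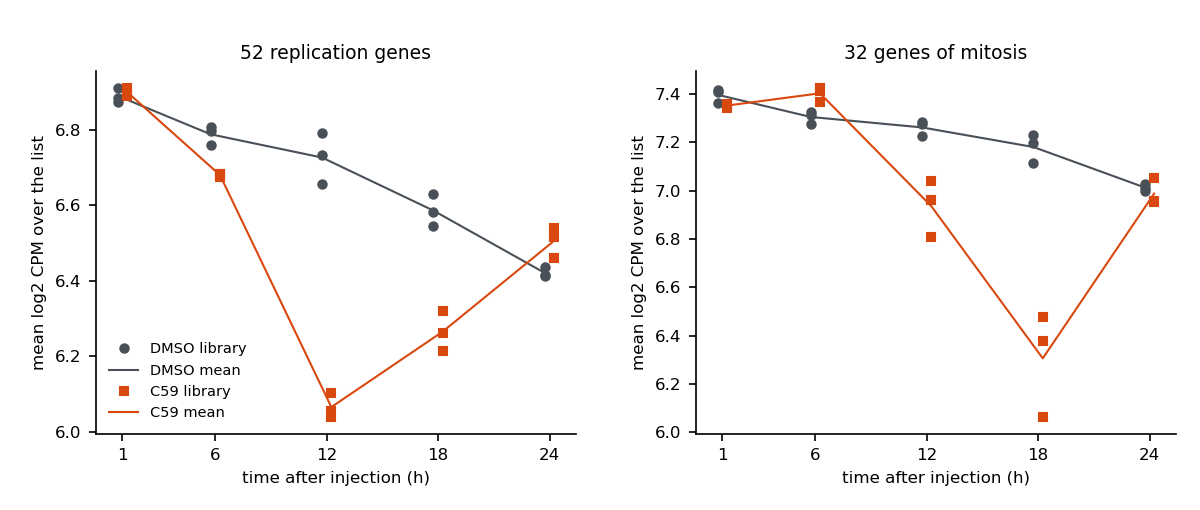
Mean log2 CPM of the 52 replication genes (left) and of 32 mitosis genes (right) in each library against hours after injection, with DMSO libraries as circles and C59 libraries as squares and lines through the group means. In the replication genes the C59 libraries were lowest at 12 h, where they lay between 6.04 and 6.10 against 6.66 to 6.79 in DMSO, and in the mitosis genes at 18 h.

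The separation of the libraries was counted as well. All 3 C59 libraries lay below all 3 DMSO libraries in 5 members at 1 h (11.6% of tested genes). At 6 h this held for 23 members (19.3%), at 12 h for 50 (30%), at 18 h for 38 (19.1%) and by 24 h for 1 (14.9%). They lay above in 7 members at 1 h (10.4%) and in 1, 0 and 1 at 6, 12 and 18 h (17.5%, 27.2% and 15%). By 24 h they lay above in 15 (12.8%). The 51 calls at 12 h ranged from -1.24 (*Cdc6*) to -0.22 (*Gins4*), and 7 of them were below -1 (1.43% of tested genes), namely *Cdc6*, *Ctps*, *Mcm10*, *Ccne1*, *Rrm2*, *Ung* and *Exo1*. The 1 member without a call at 12 h was *Fen1* in the counts. In FPKM its 12 h values were 47.8, 46.3 and 49.9 in DMSO and 26.9, 26.4 and 28.3 in C59 libraries, with no overlap, and limma on log2(FPKM + 1) gave -0.80 with an adjusted p of 0.000206.

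**Figure D2:**
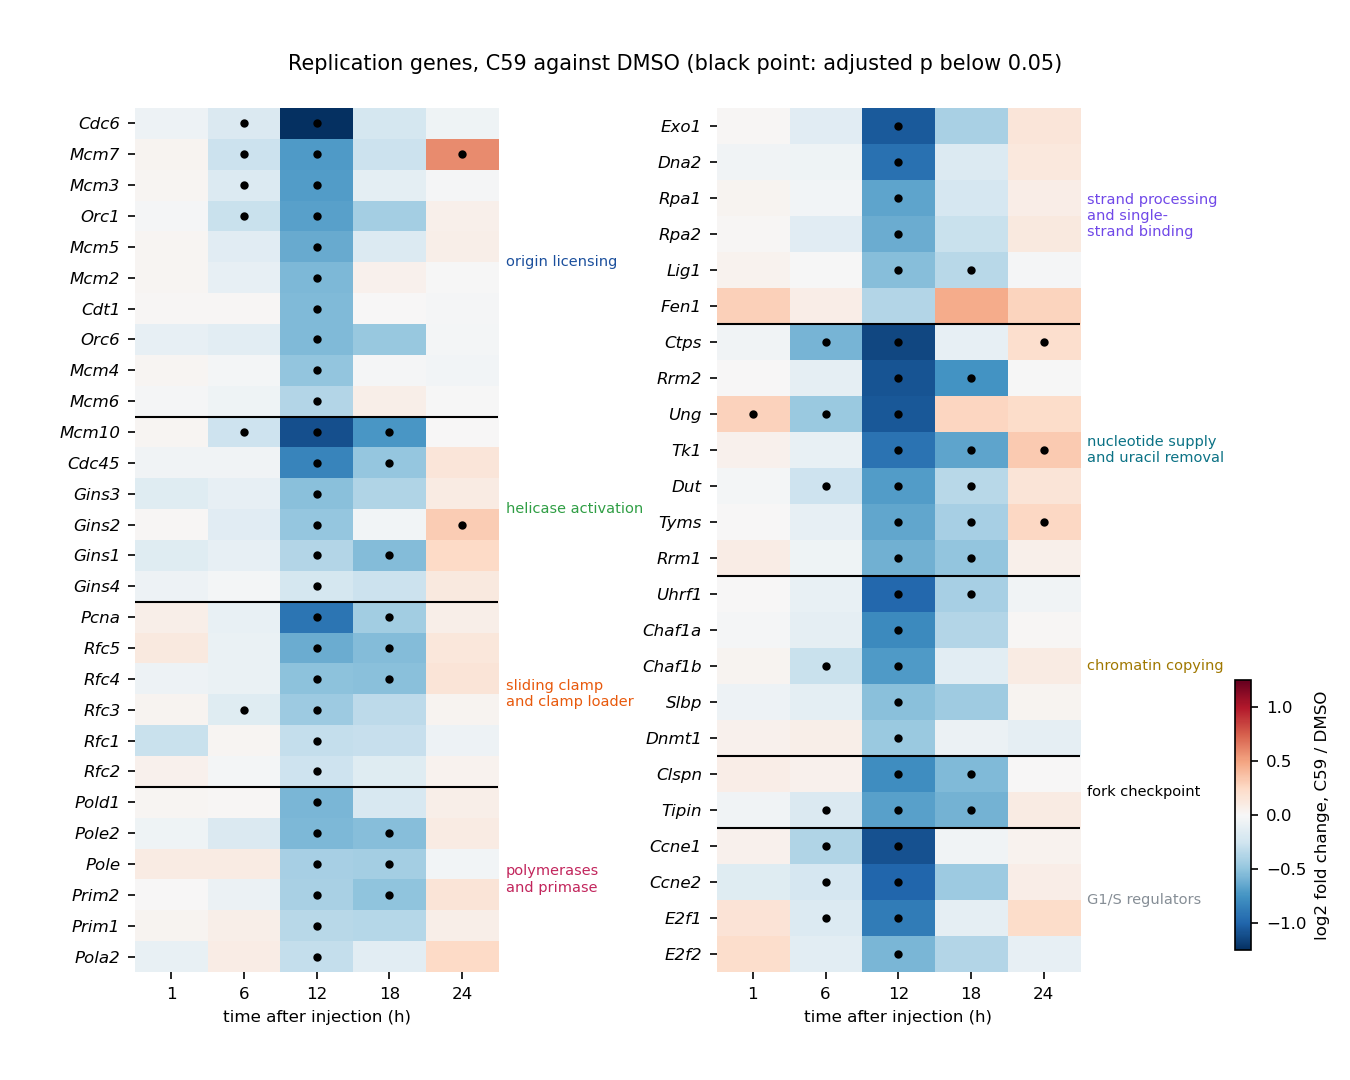
Log2 fold change of C59 against DMSO for each of the 52 genes (rows, ordered within roles by the 12 h value) at each time (columns, hours after injection), with a black point where adjusted p was below 0.05. The 12 h column is blue throughout and carries 51 points, while at 18 h the 18 points lie in 7 of the 9 role groups and none is among licensing genes or G1/S regulators; the *Fen1* row rests on sparse counts.

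The time of the lowest value was read for each member. The lowest of the 5 fold changes was at 12 h in 46 members and at 18 h in 6, as a description of the fitted values. The 12 h calls included all 14 genes with a call at 6 h and all 18 with one at 18 h, whereas 3 had calls at both 6 and 18 h (*Mcm10*, *Dut* and *Tipin*). At the median, 48.5% of the 12 h log2 change was left at 18 h, with less than 25% left in 15 members and more than 75% in 13. *Fen1* entered these values with its sparse counts and is among the 15.

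To show the DNA in front of the genes with the largest and smallest 12 h changes, the 250 bases before the RefSeq transcription start (GRCm38.p6) are printed for the 4 most negative members and for the 2 least negative ones with an entry. *Mcm6* was added after its values were seen because it had the most matches before the start. *Gins4* and *Rfc2* are named only. Capitals mark matches on either strand to the E2F-type letters TTGGCGC, the related form TTCCCGC, the related form TTGCCGC and the related form TTCGCGC, or to CCAAT, which reads ATTGG on the other strand. TTGGCGC and the reverse of TTCGCGC overlap in *Mcm6* (first bases -109 and -106, and -46 and -43) and were counted as separate matches. ATTGG can overlap TTGGCGC. The windows are chr11:98907901-98908150 on the plus strand for *Cdc6*, chr4:120570277-120570526 on the minus strand for *Ctps*, chr2:5012792-5013041 on the minus strand for *Mcm10*, chr7:38107491-38107740 on the minus strand for *Ccne1*, chr1:128359706-128359955 on the minus strand for *Mcm6*, chr19:5964207-5964456 on the minus strand for *Pola2*, chr5:65335640-65335889 on the minus strand for *Rfc1*.
Cdc6: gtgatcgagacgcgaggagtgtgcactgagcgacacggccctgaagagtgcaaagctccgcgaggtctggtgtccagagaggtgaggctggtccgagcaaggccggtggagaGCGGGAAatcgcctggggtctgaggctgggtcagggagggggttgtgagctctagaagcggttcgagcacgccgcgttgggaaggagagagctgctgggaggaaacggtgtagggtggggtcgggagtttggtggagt
Ctps: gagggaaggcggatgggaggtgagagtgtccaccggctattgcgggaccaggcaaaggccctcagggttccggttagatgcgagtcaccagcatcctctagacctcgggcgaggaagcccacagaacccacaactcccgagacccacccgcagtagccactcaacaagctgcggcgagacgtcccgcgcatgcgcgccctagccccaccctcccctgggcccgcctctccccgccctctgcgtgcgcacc
Mcm10: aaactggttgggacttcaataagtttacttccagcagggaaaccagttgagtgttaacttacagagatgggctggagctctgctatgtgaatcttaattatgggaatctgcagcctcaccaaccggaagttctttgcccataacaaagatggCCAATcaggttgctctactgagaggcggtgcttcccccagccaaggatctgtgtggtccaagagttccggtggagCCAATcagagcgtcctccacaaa
Ccne1: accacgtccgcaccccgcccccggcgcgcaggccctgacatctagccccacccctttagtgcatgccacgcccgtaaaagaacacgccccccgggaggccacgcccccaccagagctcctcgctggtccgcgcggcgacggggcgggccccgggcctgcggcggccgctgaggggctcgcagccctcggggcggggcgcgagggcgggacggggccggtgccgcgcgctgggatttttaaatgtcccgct
Mcm6: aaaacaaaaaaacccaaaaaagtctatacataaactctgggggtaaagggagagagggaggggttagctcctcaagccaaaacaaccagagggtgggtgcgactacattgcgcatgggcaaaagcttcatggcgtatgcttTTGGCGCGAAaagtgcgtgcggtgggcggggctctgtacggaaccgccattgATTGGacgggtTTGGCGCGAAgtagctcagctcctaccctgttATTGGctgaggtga
Pola2: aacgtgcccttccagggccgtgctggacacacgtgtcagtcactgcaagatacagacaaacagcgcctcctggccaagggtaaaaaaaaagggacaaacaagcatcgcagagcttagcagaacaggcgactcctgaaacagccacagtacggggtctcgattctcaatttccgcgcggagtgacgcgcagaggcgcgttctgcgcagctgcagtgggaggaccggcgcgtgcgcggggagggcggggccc
Rfc1: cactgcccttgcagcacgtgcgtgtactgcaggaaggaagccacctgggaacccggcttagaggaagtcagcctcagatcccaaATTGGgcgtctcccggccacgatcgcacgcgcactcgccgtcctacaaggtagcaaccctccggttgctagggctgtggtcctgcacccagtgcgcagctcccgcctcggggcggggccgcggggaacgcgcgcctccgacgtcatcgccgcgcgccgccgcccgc

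The windows of *Ctps*, *Ccne1* and *Pola2* held neither kind of match. *Cdc6* held 1 E2F-type match 138 bases before its RefSeq start, and *Mcm6* held 4 before and 1 after its start. In *Mcm10* 2 CCAAT matches lay before the start and 1 after it, and in *Rfc1* both E2F-type matches lay after the start, outside the printed stretch. The RefSeq start of *Cdc6* lies 350 bases after the start in the annotation used for the counts. All of its printed stretch, with the match, thus lies after that annotated start. Of 52 members 42 had an entry, with 51 windows from 250 bases before to 50 after a start. An E2F-type match stood in 56.9% of these windows, against 9.57% of all 32851 windows and 16.1% of the 13438 windows of tested genes. CCAAT stood in 54.9% of member windows (37.4% of all, 37.1% of tested genes). TCF/LEF-type letters, the form bound by the WNT pathway's DNA-binding factors, were searched as CTTTGAT, the related form CTTTGAA, the related form CTTTGTT and the related form CTTTGTA. They stood in 7.84% of member windows (16.9% of all, 11.4% of tested genes). The window of *Mcm10* held 1 such match, which is not marked by capitals above, and those of the other printed genes held 0. The CHR-type letters TTTGAA and the related form TTCGAA, known from mitosis genes, stood in 15.7% (19.2% of all, 13.6% of tested genes). CTTTGAA holds TTTGAA, so these last counts overlap. GC content is part of what these windows share, with a median of 60% in member windows, 60.7% in windows of tested genes and 52.7% in all. The 22 members with an E2F-type match in the window nearest their start had a median 12 h log2 fold change of -0.61 and the 20 without had -0.68. Letters of this kind are a description of the sequence and not evidence of a bound site.

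Origin licensing genes fell at 12 h and had no call at 18 h. This group holds *Orc1* and *Orc6* of the origin recognition complex, the loaders *Cdc6* and *Cdt1*, and the 6 subunits of the MCM helicase, *Mcm2* to *Mcm7*. At 6 h 4 of 10 were lower (*Orc1*, *Mcm7*, *Cdc6* and *Mcm3*), at 12 h 10 of 10, at 18 h 0 of 10 and at 24 h 1 was higher. Group medians of the log2 fold change from 6 h on were -0.14, -0.60, -0.14 and -0.01. The 18 h values were uneven, with *Orc6* at -0.47 and *Orc1* at -0.42, while *Mcm2*, *Mcm4*, *Mcm6* and *Cdt1* lay between -0.01 and 0.07. All C59 libraries lay below all DMSO libraries at 18 h in 4 of 10 (19.1% of tested genes). The shares of all tested genes given above for each time, such as 11.4% lower at 6 h, apply to every role group. A single call at 6 h, 16.7% of a group of 6 or 20% of a group of 5, is not far from that share. In every role group, the 18 h calls other than those of *Mcm10* and *Rrm2* were lost without 1 or another single library.

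*Mcm5*, one of the more abundant members, stood in DMSO libraries at 449, 447 and 447 CPM at 1 h, then 428, 407 and 424 at 6 h, then 400.2, 383 and 416 at 12 h, then 374, 334 and 353 at 18 h and then 301, 318 and 312 at 24 h. C59 libraries had 463, 446 and 453 CPM at 1 h, then 366, 387 and 395 at 6 h, then 252, 258 and 263 at 12 h, then 285, 278 and 370.5 at 18 h and then 349, 317 and 307 at 24 h. The groups were apart at 6 and 12 h and overlapped at 1, 18 and 24 h, and only the 12 h difference was called (log2 fold change -0.63 ± 0.04, adjusted p = 2.33e-06). *Cdc6*, the loader of MCM rings that is made anew in each cycle, had 90.1, 86.8 and 91.1 CPM at 1 h, then 81.3, 82.4 and 84.3 at 6 h, then 82.7, 78.3 and 84.4 at 12 h, then 59.3, 64.8 and 66.2 at 18 h and then 57.1, 60.4 and 59.3 at 24 h with solvent. With C59 it had 86.9, 83.4 and 85.7 CPM at 1 h, then 74.2, 70.9 and 74.4 at 6 h, then 34.4, 32.9 and 36.2 at 12 h, then 57.99, 50.9 and 52.5 at 18 h and then 54.5, 57.6 and 57.9 at 24 h. The 12 h libraries were far apart (log2 fold change -1.24 ± 0.06, adjusted p = 3.72e-07), the most negative value of all 52 members. Its effect at 18 h differed from that at 12 h by 1.03 ± 0.11 (adjusted p = 9.7e-05).

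Among the other licensing genes the 12 h values lay between -0.71 (*Mcm7*) and -0.36 (*Mcm6*). *Mcm6* had the smallest change of the group (log2 fold change -0.36 ± 0.04, adjusted p = 2.83e-05). *Mcm7* was the exception of the group at 24 h, where it stood at 356, 341 and 302 CPM after C59 and at 245, 176 and 246 with solvent (log2 fold change 0.59 ± 0.11, adjusted p = 0.00887). The groups did not overlap, but DMSO replicate 2 lay well under the other 2 controls. In control buds *Mcm7* also had the most negative change of all members from 1 h to 24 h (log2 fold change -1.15 ± 0.09, adjusted p = 1.19e-07). At 18 h *Mcm2* stood at 336, 318 and 424 CPM with C59 and at 357, 346 and 350.0 with DMSO, with the highest value in C59 replicate 3.

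All 6 helicase activation genes were lower at 12 h, and 3 of them at 18 h. Of *Mcm10*, *Cdc45* and the 4 GINS subunits *Gins1* to *Gins4*, 1 was lower at 6 h (*Mcm10*), 6 of 6 at 12 h and 3 of 6 at 18 h, and 1 was higher at 24 h. The medians from 6 h to 18 h were -0.10, -0.50 and -0.43, and *Gins2* was at -0.03 at 18 h. Without single libraries the 18 h calls of *Cdc45* and *Gins1* were lost, and that of *Mcm10* was kept. *Cdc45*, the partner that completes the active helicase, had 81.8, 76.3 and 82.4 CPM at 1 h, then 72.7, 74.1 and 69.4 at 6 h, then 71.5, 62.7 and 71.6 at 12 h, then 63.99, 61.8 and 58.3 at 18 h and then 55.5, 56.4 and 55.6 at 24 h in controls. Under C59 its values were 79.4, 73.4 and 80.8 CPM at 1 h, then 75.7, 67.1 and 68.3 at 6 h, then 35.1, 39.05 and 41.9 at 12 h, then 41.2, 39.96 and 48.6 at 18 h and then 61.7, 65.04 and 57.98 at 24 h. The 12 h and 18 h groups did not overlap (log2 fold change -0.82 ± 0.08, adjusted p = 1.63e-05 at 12 h, and log2 fold change -0.49 ± 0.11, adjusted p = 0.0291 at 18 h). The 24 h groups did not overlap either, with C59 above, a difference that was not called (log2 fold change 0.15 ± 0.07, adjusted p = 0.225).

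*Mcm10*, which helps to switch the loaded helicase on, was among the 3 most negative members at 12 h and at 18 h. Its values at 12 h were 100.5, 87.2 and 98.9 CPM in DMSO and 42.8, 45.6 and 45.01 in C59 libraries (log2 fold change -1.10 ± 0.07, adjusted p = 1.05e-06). At 18 h they were 85.9, 79.3 and 81.2 and 53.5, 45.1 and 48.6 CPM (log2 fold change -0.72 ± 0.10, adjusted p = 0.005), again without overlap. *Gins1* was further down at 18 h (-0.54) than at 12 h (-0.37), although the difference between these effects was not called (-0.17 ± 0.14, adjusted p = 0.533). *Gins2* stood at 34.7, 38.7 and 38.6 CPM in DMSO and 48.8, 44.2 and 46.1 in C59 libraries at 24 h (log2 fold change 0.32 ± 0.08, adjusted p = 0.0289), with its exons largely shared with a gene of the opposite strand.

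The sliding clamp *Pcna* and its loader subunits *Rfc1* to *Rfc5* were lower in 1 of 6 at 6 h (*Rfc3*), 6 of 6 at 12 h and 3 of 6 at 18 h (*Pcna*, *Rfc4* and *Rfc5*). At 24 h 0 were called, and the medians from 6 h on were -0.08, -0.49, -0.38 and 0.06. *Pcna* had 363, 351 and 361 CPM at 1 h, then 334, 302 and 319 at 6 h, then 309, 297 and 321 at 12 h, then 266, 256 and 286 at 18 h and then 239, 238 and 243 at 24 h in control libraries. In treated libraries it had 384, 377 and 364 CPM at 1 h, then 294, 293 and 311 at 6 h, then 156, 160.4 and 174 at 12 h, then 203, 191 and 195 at 18 h and then 242, 265 and 246 at 24 h. At 12 h it was the most changed gene of this group (log2 fold change -0.92 ± 0.05, adjusted p = 7.72e-07). It was still called at 18 h (log2 fold change -0.44 ± 0.09, adjusted p = 0.0199), and the groups were apart at both times. The loader subunits changed less, from -0.62 (*Rfc5*) to -0.26 (*Rfc2*) at 12 h. *Rfc1* had 229, 208 and 224 CPM in DMSO and 148, 198 and 198 in C59 libraries at 1 h, without overlap (log2 fold change -0.28 ± 0.08, adjusted p = 0.0897).

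Polymerase and primase genes had the median nearest to 0 of the 9 groups at 12 h, -0.41, and one of -0.39 at 18 h. The group holds *Pola2*, *Prim1* and *Prim2* of the polymerase alpha and primase complex, *Pold1*, the catalytic subunit of the lagging-strand polymerase, and *Pole* and *Pole2* of the leading-strand polymerase. It had 0 of 6 called at 6 h, 6 of 6 lower at 12 h, 3 of 6 lower at 18 h (*Pole*, *Pole2* and *Prim2*) and 0 at 24 h. *Pole* stood in DMSO libraries at 104, 103 and 105 CPM at 1 h, then 89.4, 104 and 87.3 at 6 h, then 95.98, 86.005 and 86.4 at 12 h, then 85.6, 97.5 and 102 at 18 h and then 77.6, 63.2 and 70.2 at 24 h. Its C59 values were 111, 114 and 109.6 CPM at 1 h, then 107, 101 and 95.1 at 6 h, then 58.6, 73.6 and 68.2 at 12 h, then 77.6, 64.6 and 67.9 at 18 h and then 72.1, 66.2 and 66.1 at 24 h. The calls were log2 fold change -0.42 ± 0.08, adjusted p = 0.00164 at 12 h and log2 fold change -0.42 ± 0.11, adjusted p = 0.0498 at 18 h, with groups that did not overlap at either time. *Pola1*, the catalytic subunit of polymerase alpha, lies on chromosome X outside the tested genes, and had 13.5, 13.95 and 13.2 FPKM in DMSO against 10.2, 10.4 and 11.3 in C59 libraries at 12 h, without overlap and without a test.

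Among genes that process the strands or bind single-stranded DNA, *Lig1*, *Dna2*, *Exo1*, *Rpa1* and *Rpa2* were lower at 12 h, and only *Lig1*, the ligase that joins Okazaki fragments, at 18 h. The group median was -0.64 at 12 h and -0.24 at 18 h, and 0 of 6 were called at 6 h and at 24 h, with *Fen1* entering by its sparse counts. *Fen1*, the nuclease that removes the flaps before ligation, stood in DMSO libraries at 56.9, 55.6 and 53.6 FPKM at 1 h, then 52.1, 46.1 and 50.04 at 6 h, then 47.8, 46.3 and 49.9 at 12 h, then 42.5, 36.8 and 39.2 at 18 h and then 35.5, 34.6 and 36.03 at 24 h. In C59 libraries its levels were 54.4, 52.7 and 56.3 FPKM at 1 h, then 45.1, 46.9 and 44.4 at 6 h, then 26.9, 26.4 and 28.3 at 12 h, then 29.1, 25.7 and 34.7 at 18 h and then 38.8, 36.8 and 32.02 at 24 h. The groups were apart at 12 and 18 h, while limma's adjusted p was 0.0885 at 18 h with a difference of -0.40 in log2(FPKM + 1). *Exo1*, a nuclease of resection and mismatch repair, changed most in the counts (log2 fold change -1.05 ± 0.07, adjusted p = 2.34e-06), followed by *Dna2*, a nuclease that trims long flaps (log2 fold change -0.94 ± 0.06, adjusted p = 9.74e-07).

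Nucleotide supply genes had a median of -0.93 at 12 h and of -0.41 at 18 h. They are *Rrm1* and *Rrm2* (ribonucleotide reductase), *Tyms* (thymidylate synthesis), *Tk1* (thymidine salvage), *Ctps* (CTP synthesis) and *Dut* (removal of dUTP), joined by *Ung*, which cuts uracil out of DNA. At 6 h 3 of 7 were lower (*Ctps*, *Ung* and *Dut*), at 12 h 7 of 7 and at 18 h 5 of 7, all but *Ctps* and *Ung*. At 24 h 3 of 7 were higher (*Tk1*, *Tyms* and *Ctps*).

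*Rrm2* had 512, 493 and 496 CPM at 1 h, then 447, 445 and 436 at 6 h, then 406, 375 and 417 at 12 h, then 325, 311 and 343 at 18 h and then 269, 282 and 277 at 24 h in DMSO libraries. After C59 it stood at 489, 507 and 505 CPM at 1 h, then 414, 399 and 420.4 at 6 h, then 175, 189 and 201 at 12 h, then 213, 194 and 167 at 18 h and then 274, 289 and 255 at 24 h. Controls and treated libraries were apart at 6, 12 and 18 h. The calls were at 12 h (log2 fold change -1.08 ± 0.06, adjusted p = 6.45e-07) and at 18 h (log2 fold change -0.75 ± 0.11, adjusted p = 0.00592), the most negative member at 18 h. *Tyms* had 161, 156 and 149 CPM at 1 h, then 151, 144 and 157 at 6 h, then 146, 137 and 145 at 12 h, then 137, 132 and 128 at 18 h and then 127, 124 and 126 at 24 h in the control buds. Its levels under C59 were 151, 163 and 153 CPM at 1 h, then 140.2, 143 and 140.1 at 6 h, then 90.1, 90.4 and 92.6 at 12 h, then 96.7, 88.4 and 109 at 18 h and then 159, 148 and 139.8 at 24 h. The direction turned between 18 h (log2 fold change -0.41 ± 0.10, adjusted p = 0.0426) and 24 h (log2 fold change 0.26 ± 0.06, adjusted p = 0.0306), and at both times the groups were apart.

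*Ctps* had the most negative change of all 52 genes at 6 h. It then stood at 170.2, 168 and 176 CPM in DMSO and 113, 116 and 115 in C59 libraries (log2 fold change -0.59 ± 0.04, adjusted p = 1.29e-06). At 12 h it stood at 165, 157 and 165 and 71.1, 72.3 and 77.9 CPM (log2 fold change -1.14 ± 0.05, adjusted p = 2.54e-07). At 18 h it had 139, 141 and 143 CPM in DMSO and 132, 129 and 128 in C59 libraries, without overlap but with a difference that was not called (log2 fold change -0.10 ± 0.08, adjusted p = 0.468). The change of its effect from 12 h to 18 h was 1.04 ± 0.09 (adjusted p = 1.26e-05).

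*Ung* moved in both directions. At 1 h it was higher after C59, at 79.5, 84.8 and 88.6 CPM against 70.9, 68.8 and 67.2 (log2 fold change 0.29 ± 0.05, adjusted p = 0.00757). This call was lost with limma on FPKM, where its adjusted p reached 0.198. At 6 h it was lower, at 58.4, 61.9 and 55.7 CPM against 80.6, 77.7 and 83.8 (log2 fold change -0.46 ± 0.06, adjusted p = 8.62e-05). At 12 h it was at 32.9, 31.2 and 32.6 CPM against 69.8, 62.1 and 69.97 (log2 fold change -1.06 ± 0.07, adjusted p = 1.28e-06). The 3 C59 libraries at 18 h, with 66.7, 65.6 and 66.8 CPM, lay above the controls with 56.6, 53.9 and 57.2, but this difference was not called (log2 fold change 0.27 ± 0.08, adjusted p = 0.0959). No other member had its C59 libraries all above at 18 h.

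*Tk1* stood at 72.6, 66.7 and 72.8 CPM in DMSO and 39.004, 39.3 and 54.3 in C59 libraries at 18 h (log2 fold change -0.66 ± 0.14, adjusted p = 0.0252). At 24 h the order was the other way round, with 67.99, 63.9 and 66.1 CPM in DMSO and 89.03, 80.98 and 76.4 in C59 libraries (log2 fold change 0.32 ± 0.07, adjusted p = 0.0207). The change of its effect between these times, 0.97 ± 0.17, was the most positive of the members (adjusted p = 0.00426).

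**Figure D3:**
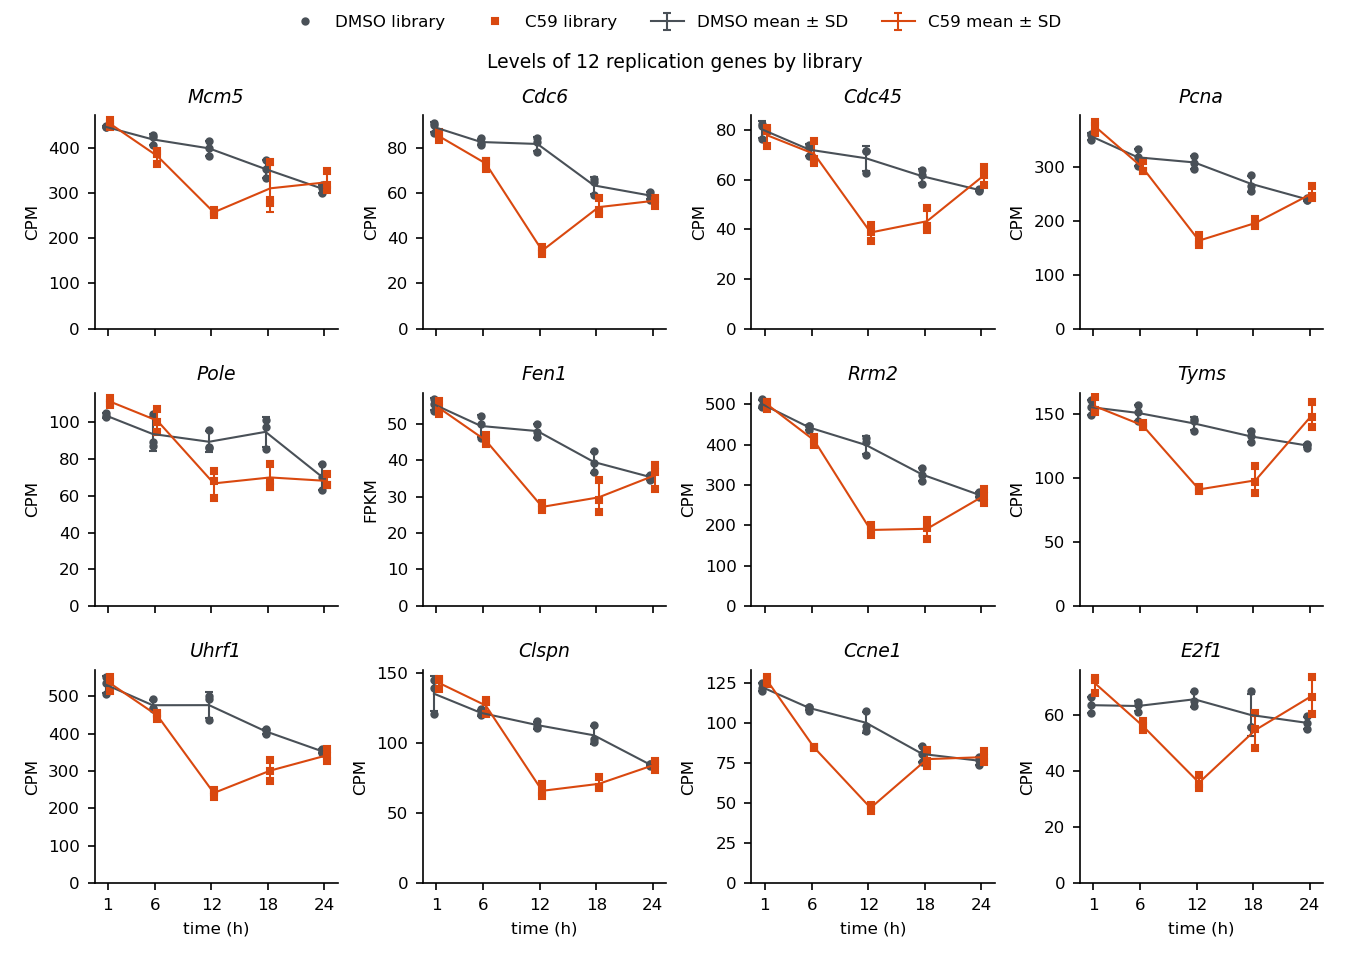
Level of 12 genes, at least 1 per role, in each library against hours after injection, in CPM (*Fen1* in FPKM), with DMSO libraries as circles, C59 libraries as squares and lines and bars for mean ± SD (n = 3). In each panel the C59 libraries lie below the DMSO libraries at 12 h, and at 18 h *Ccne1* and *Mcm5* overlap with the controls while *Rrm2* and *Clspn* do not.

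Genes for copying chromatin fell at 12 h in 5 of 5, with a median of -0.71. At 18 h 1 of 5 was lower (*Uhrf1*, median -0.37), at 6 h 1 was lower (*Chaf1b*) and at 24 h 0 were called. *Chaf1a* and *Chaf1b* place histones on new DNA, *Dnmt1* copies DNA methylation, and *Slbp* binds the histone mRNA stem-loop. *Uhrf1* had 507, 534 and 552 CPM at 1 h, then 492, 467 and 469 at 6 h, then 491, 435 and 501 at 12 h, then 408, 399 and 411 at 18 h and then 347, 353 and 358 at 24 h in DMSO libraries. Its values after C59 were 552, 513 and 536 CPM at 1 h, then 454, 453 and 438 at 6 h, then 229, 244 and 250.2 at 12 h, then 301, 272 and 329.6 at 18 h and then 358, 340.0 and 327 at 24 h. Only the groups at 1 and 24 h overlapped, and the calls were at 12 h (log2 fold change -0.98 ± 0.06, adjusted p = 1.2e-06) and 18 h (log2 fold change -0.41 ± 0.10, adjusted p = 0.0351). *Dnmt1*, its partner in maintenance methylation, changed less at 12 h (log2 fold change -0.46 ± 0.04, adjusted p = 1.27e-05).

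Both fork checkpoint genes, *Clspn* and *Tipin*, whose proteins travel with the fork and signal when it stalls, were lower at 12 and at 18 h, with medians of -0.73 and -0.58. *Clspn* had 146, 121 and 139.5 CPM at 1 h, then 120.0, 124 and 121 at 6 h, then 116, 111 and 112 at 12 h, then 101, 103 and 113 at 18 h and then 83.99, 85.1 and 84.8 at 24 h in controls. Treated libraries had 145, 146 and 139 CPM at 1 h, then 129, 131 and 121 at 6 h, then 62.1, 70.8 and 65.2 at 12 h, then 75.996, 68.7 and 68.3 at 18 h and then 80.9, 85.8 and 87.6 at 24 h. Groups were apart at 12 h (log2 fold change -0.77 ± 0.06, adjusted p = 2.97e-06) and at 18 h (log2 fold change -0.56 ± 0.09, adjusted p = 0.0108) and overlapped at 1, 6 and 24 h. *Tipin* was called at 6 h as well (log2 fold change -0.18 ± 0.05, adjusted p = 0.0365). Without single libraries this call and both 18 h calls of the group were lost.

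All 4 G1/S regulators were lower at 12 h, and none was called at 18 h. Of the cyclin genes *Ccne1* and *Ccne2* and the E2F genes *E2f1* and *E2f2*, 3 of 4 were lower at 6 h and 0 of 4 were called at 24 h. The medians from 6 h on were -0.19, -0.93, -0.24 and 0.06. *Ccne1*, a cyclin that drives entry into S phase, had 122, 125 and 120.2 CPM at 1 h, then 108, 110.2 and 111 at 6 h, then 98.1, 95.1 and 108 at 12 h, then 80.8, 75.7 and 86.01 at 18 h and then 77.4, 78.7 and 73.9 at 24 h with DMSO. Its C59 libraries had 129, 127 and 124 CPM at 1 h, then 85.3, 84.9 and 84.4 at 6 h, then 47.1, 49.2 and 45.01 at 12 h, then 73.6, 76.2 and 83.04 at 18 h and then 82.8, 78.2 and 75.6 at 24 h. Groups were apart at 6 h (log2 fold change -0.37 ± 0.05, adjusted p = 7.96e-05) and 12 h (log2 fold change -1.09 ± 0.06, adjusted p = 9.74e-07), and the values overlapped again at 18 h.

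*E2f1*, a transcription factor of the G1/S genes, had 66.4, 63.5 and 60.9 CPM at 1 h, then 63.7, 61.3 and 64.9 at 6 h, then 65.1, 63.4 and 68.5 at 12 h, then 68.7, 55.7 and 55.8 at 18 h and then 57.2, 55.02 and 59.6 at 24 h in DMSO libraries. Under C59 it had 73.3, 67.9 and 72.5 CPM at 1 h, then 54.7, 57.98 and 56.1 at 6 h, then 38.5, 35.4 and 33.8 at 12 h, then 54.998, 48.4 and 60.8 at 18 h and then 73.7, 66.5 and 60.6 at 24 h. The C59 libraries lay above the controls at 1 h (log2 fold change 0.17 ± 0.05, adjusted p = 0.122) and at 24 h (log2 fold change 0.23 ± 0.08, adjusted p = 0.106), and neither difference was called. They lay below the controls at 6 h (log2 fold change -0.18 ± 0.05, adjusted p = 0.0343) and at 12 h (log2 fold change -0.87 ± 0.07, adjusted p = 3.38e-06), and both differences were called. *Ccne2* had a wide spread at 18 h, and its log2 fold change of -0.46 ± 0.24 there had an adjusted p of 0.276.

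The effects of C59 at neighbouring times were compared directly, as an interaction of treatment and time over 12 libraries. The effect became more negative from 1 h to 6 h in 10 members (7.65% of tested genes were called in this direction) and from 6 h to 12 h in 49 (11.5%), and in 0 members more positive (5.31% and 6.59%). It became more positive from 12 h to 18 h in 19 members (4.94%) and from 18 h to 24 h in 21 (3.53%), and in 0 more negative (3.55% and 3.43%). Without each library in turn the 4 counts ran from 7 to 14, 42 to 48, 15 to 24 and 14 to 30. Neighbouring comparisons share the libraries of the time between them.

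The calls at both steps back were counted by role group, and no test compared one role group with another. Over all tested genes 4.94% were called more positive from 12 h to 18 h and 3.53% from 18 h to 24 h. From 12 h to 18 h the effect of 7 of 10 licensing genes, 4 of 5 chromatin genes, 3 of 6 strand-processing genes, 2 of 4 G1/S regulators (*Ccne1* and *E2f1*), 2 of 7 nucleotide genes (*Ung* and *Ctps*) and 1 of 6 clamp genes (*Pcna*) became more positive. It did so by the test in 0 of 6 helicase activation genes, 0 of 6 polymerase genes and 0 of 2 fork checkpoint genes. From 18 h to 24 h it was 6 of 7 nucleotide genes, 4 of 6 helicase activation genes, 3 of 6 clamp genes, 3 of 6 strand-processing genes, 2 of 6 polymerase genes and 2 of 2 fork checkpoint genes. At this step it was 1 of 10 licensing genes (*Mcm7*), 0 of 5 chromatin genes and 0 of 4 G1/S regulators. The most positive changes from 12 h to 18 h were those of *Ung* (1.34 ± 0.10), *Ccne1* (1.06 ± 0.12) and *Ctps* (1.04 ± 0.09), and the most negative was the uncalled value of *Gins1*.

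**Figure D4:**
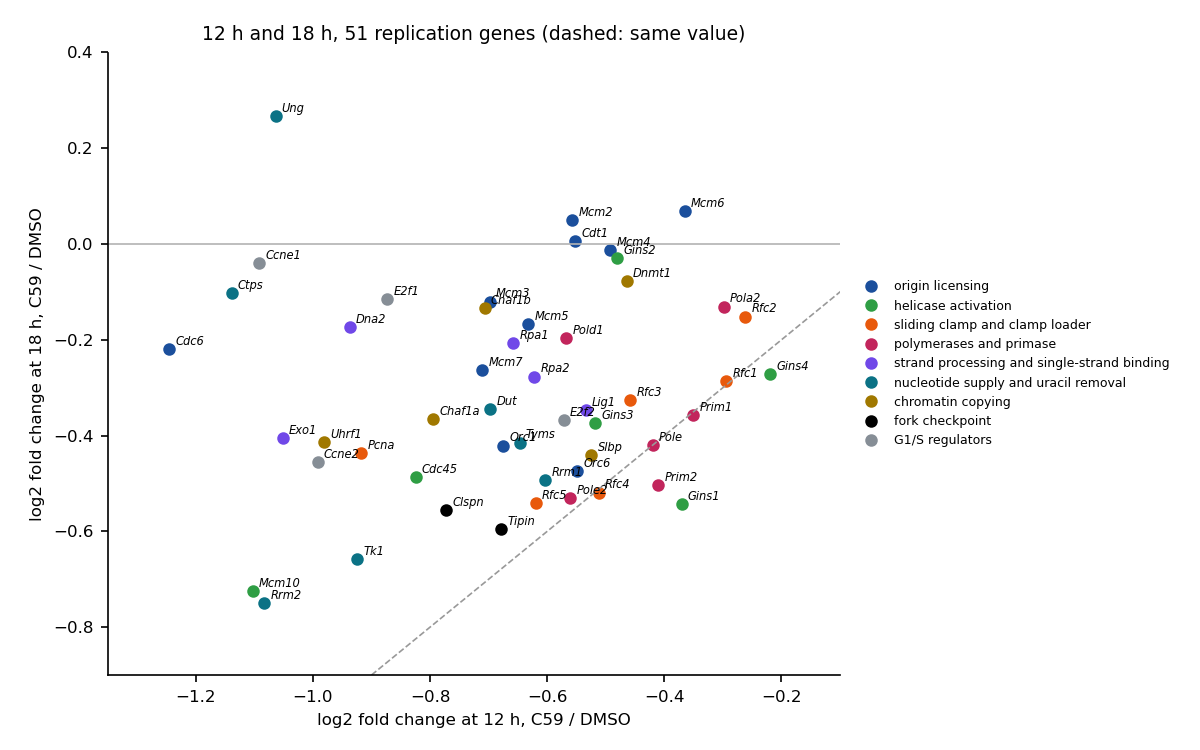
Log2 fold change of C59 against DMSO at 12 h (horizontal) and at 18 h (vertical) for 51 genes, without *Fen1*, coloured by role, with a dashed line where both values are the same. *Cdc6*, *Ctps*, *Ccne1* and *Ung* lie far above the line, whereas *Prim1*, *Pole*, *Rfc4* and *Rfc1* lie on it and *Gins1*, *Prim2* and *Gins4* below it.

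Replication genes also fell with developmental time in control buds. From 1 h to 24 h after DMSO 50 of 52 members were lower (29.2% of 13580 tested genes) and 0 higher (30.2%), with a median of -0.45 beside 0.00 for all tested genes. In 49 members all libraries at 24 h lay below all at 1 h (31.9% of tested genes), and in 0 above (32.9%). After *Mcm7*, the most negative were *Mcm10* (log2 fold change -0.87 ± 0.05, adjusted p = 8.96e-10) and *Rrm2* (log2 fold change -0.86 ± 0.04, adjusted p = 3.9e-10). The 2 members without a call were *E2f2* (0.02 ± 0.07) and, in counts, *Fen1*, for which limma on log2(FPKM + 1) gave -0.63 (adjusted p = 2.68e-05).

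The level reached 12 h after C59 was below the level control buds had 12 h later. All 3 C59 libraries at 12 h lay below all 3 DMSO libraries at 24 h in 44 members (30.3% of tested genes) and above them in 1 (21%). The group mean was lower in 50, with *Mcm7* and, in its sparse counts, *Fen1* as the exceptions. In FPKM *Fen1* had 26.9, 26.4 and 28.3 in C59 libraries at 12 h and 35.5, 34.6 and 36.03 in DMSO libraries at 24 h. The comparison of these levels was made with no test, and it shares its libraries with those above.

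Other genes of replication were listed beside the 52. Of 61 in the count table, 15 were lower (11.4% of tested genes) and 3 higher (8.2%) at 6 h. At 12 h 51 were lower (25.5%) and 3 higher (22%), with a median of -0.54. At 18 h 17 were lower (3.62%) and 0 higher (3.46%), with a median of -0.33. At 24 h 0 were lower (3.56%) and 2 higher, which at 3.28% of the list is near the share of all tested genes (2.88%). At 1 h 2 were higher (1.14%), *Mcm8*, a helicase relative used in repair (0.30), and *Supt16*, a histone chaperone (0.22). The most negative calls at 6 h were *E2f4*, a mainly repressive E2F (-0.41), *Umps* of pyrimidine synthesis (-0.32) and *Tfdp1*, the E2F partner (-0.32), and the positive ones were *Rbl2*, an RB relative (0.47), *Ticrr*, which acts in origin firing (0.28), and *Mcm8* (0.26).

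At 12 h the most negative were *Cad*, the first enzyme of pyrimidine synthesis (-1.05), *Chtf8* of an alternative clamp loader (-0.95), which rests on sparse counts (0.828 to 2.38 CPM over the 30 libraries), and *Umps* (-0.92). Higher at 12 h were *Pold4*, a small polymerase subunit (0.96), *Rb1*, which holds E2F factors back (0.43), and *Rrm2b*, the p53-inducible subunit of ribonucleotide reductase (0.34). At 18 h the most negative were *Pclaf*, a clamp-binding factor (-1.06), *Ccna2*, the S-phase cyclin (-0.88), and *Dbf4*, the activator of the origin-firing kinase (-0.74), and at 24 h the higher ones were *Tfdp1* (0.28) and *Dtymk*, which makes dTDP (0.23). From 12 h to 18 h *Cad* (1.164), *Umps* (0.84) and *Pold2* (0.72) led 10 genes whose effect became more positive (4.94% of tested genes). The 1 gene whose effect became more negative was *Rb1* (-0.996; 3.55% of tested genes).

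Genes of mitosis, which follows replication in the cell cycle, had their lowest values later. Of 32 listed genes 0 were lower and 8 higher at 6 h (8.2% of tested genes were called higher), led by *Cenpe* (0.42), *Aspm* (0.41) and *Cenpf* (0.41), which act at kinetochores and spindle poles. At 12 h 26 were lower (25.5% of tested genes) with a median of -0.36. They were led by the checkpoint kinase *Bub1* (-0.62), the kinetochore gene *Nuf2* (-0.60) and *Cdk1* (-0.56). At 18 h again 26 were lower (3.62%), with a median of -0.85, led by *Bub1* (-1.09), *Nuf2* (-1.06) and *Ccnb1*, the mitotic cyclin (-1.06). At 24 h 4 were lower (3.56%), *Mki67* (-0.37), *Cenpf* (-0.37) and *Cenpe* (-0.35) among them. The lowest of the 5 fold changes was at 18 h in 31 of 32 mitosis genes and at 12 h in 46 of 52 replication genes.

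The direct test between 12 h and 18 h went in opposite directions in the lists. The effect became more negative in 15 of 32 mitosis genes (3.55% of tested genes) and more positive in 0 (4.94%). It became more positive in 19 of 52 replication genes. The mitosis calls were led by *Nusap1* (-1.18), *Kif23* (-0.79) and *Hmmr* (-0.77). Each was lowest in C59 replicate 3 at 18 h, with *Nusap1* at 76.0, 71.7 and 38.0 CPM in the C59 libraries. The 32 genes summed to 3538, 3257 and 2628 CPM in these libraries and to 5191, 5727 and 5797 in DMSO libraries at 18 h. Counts without C59 replicate 3 are not given for the mitosis list.

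Markers of other cell types were read beside these results. At 12 h 25.5% of tested genes were called lower and 22% higher. Of 6 forelimb mesenchyme markers 5 were lower, with *Msx1* the lowest (log2 fold change -3.01), and 1 was higher, *Tbx5* (0.21). Their summed FPKM was 357 to 367 in C59 against 555 to 587 in DMSO libraries. Of 6 chondrogenic markers 5 were higher (350.2 to 473 against 174 to 183), and of 6 muscle markers 4 were higher and 2 lower (90.7 to 115 against 32.4 to 62.03). Ectoderm markers were higher in 4 of 6 (120.2 to 167 against 76.2 to 90.02) and endothelium markers in 4 of 6 (78.5 to 86.2 against 59.2 to 65.8). Macrophage markers were higher in 5 of 6 (17.9 to 20.4 against 9.99 to 11.2) and nerve and neural crest markers in 3 of 5 (24.8 to 30.5 against 13.7 to 17.2). Of 6 erythroid markers 1 was called higher, a share under that of all tested genes (7162 to 10272 against 5510 to 7911).

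At 18 h, where 3.46% of tested genes were called higher, 4 of 6 chondrogenic markers (325 to 368 summed FPKM in C59 against 193 to 237 in DMSO), 4 of 6 ectoderm markers (115 to 145 against 89.6 to 97.3) and 3 of 6 macrophage markers (23.1 to 29.5 against 15.99 to 17.9) were higher. Forelimb mesenchyme markers were lower in 2 of 6 (443 to 471 against 506 to 546; 3.62% of tested genes were called lower), with *Msx1* the lowest (-1.89). Muscle markers were lower in 2 of 6 and higher in 1, and nerve and neural crest markers were higher in 1 of 5. Endothelium and erythroid markers had 0 of 6 called. At 6 h (11.4% of tested genes lower, 8.2% higher) 4 of 6 forelimb mesenchyme, 3 of 6 erythroid and 1 of 6 endothelium markers were lower. Higher were 2 of 5 tested chondrogenic and 2 of 5 nerve and neural crest markers. Muscle markers were lower in 1 of 6 and higher in 2, ectoderm markers lower in 1 and higher in 1, and macrophage markers had 0 called. At 1 h, where *Ung* was called, 2 of 6 erythroid markers were higher (5968 to 8407 against 4801 to 6119; 1.14% of tested genes), and all 6 had a positive log2 fold change. No marker of these lists was at 0 in all libraries of a group at 1, 12 or 18 h, and their part in the change of the replication genes was not tested.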

How the data were processed

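Per the labels and the study's methods, the authors trimmed reads with cutadapt 1.16, mapped them to mm10 with STAR 2.7.0e and took read counts per gene from STAR and FPKM from Cufflinks 2.2.1. The deposited count table holds whole-number counts of 50833 genes, of which 50628 matched the annotation, and the deposited FPKM table holds 55052 genes, normalised by transcript length and library size by the authors. Whether STAR counts used strand is not given in the sources used here. Libraries held 18188636 to 38974885 counts, which limits the precision of low genes only.

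From these, protein-coding autosomal genes kept by filterByExpr (minimum count 10, total 15) were tested with TMM factors and edgeR 4.0.16's quasi-likelihood test (R 4.3.3), C59 against DMSO at each time on its own 6 libraries, neighbouring times as an interaction on 12, and DMSO at 24 h against 1 h on 6. Two-sided p-values were Benjamini-Hochberg adjusted over all tested genes, and the standard error was the log2 fold change divided by the root of F. The threshold was an adjusted p of 0.05 with no minimum fold, whereas the study also asked for a log2 fold change beyond 1. CPM used TMM library sizes, and means are given ± SD. Alternatives were DESeq2 1.42.0, limma 3.58.1 on log2(FPKM + 1) and log2(FPKM + 0.1), other factors, filters and designs, and each library left out. The model code was tested on simulated data.

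The members and all lists were chosen with earlier results of these data known. Genes named with every library's value were 12 anchors, at least 1 per role group, and the up to 3 most negative and 3 most positive calls per comparison, and 3 each for the other lists. The replicate numbers were not used to pair the libraries. Same-numbered libraries correlated between -0.34 and 0.22 in their deviations from the group means. At 12 h these correlations (0.07, 0.19 and 0.22) were above the highest ones with another number (-0.04, -0.01 and -0.04). Whether the numbers pair libraries at 12 h is thus not settled, and with the replicate number as a block all 51 calls there were kept. Promoter windows came from RefSeq (GRCm38.p6), where *Ccne2*, *Exo1*, *Gins1*, *Gins2*, *Gins4*, *Mcm4*, *Pole*, *Prim2*, *Rfc2* and *Tipin* had no entry. Genes on chromosomes X and Y were not tested.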

Additional observations from a re-analysis of the deposited data

Results flagged for a closer look

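The effect of C59 on the 52 replication genes differed between neighbouring times by the interaction of treatment and time (edgeR's quasi-likelihood test, adjusted p below 0.05), and each such difference is listed with its leading gene. From 1 h to 6 h it became more negative in 10 members, most in *Ung* (-0.75), and from 6 h to 12 h in 49, most in *Cdc6* (-1.07). From 12 h to 18 h it became more positive in 19 members, most in *Ung* (1.34), and from 18 h to 24 h in 21, most in *Tk1* (0.97). With 3 libraries a group, no single library was tested as an outlier.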

How the results depend on the processing

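No called member or count turned its direction under any alternative. The uncalled count values of *Fen1* at 1, 6 and 18 h and from 18 h to 24 h (0.30, 0.09, 0.47 and -0.20) had the other sign with limma on log2(FPKM + 1) (-0.02, -0.12, -0.40 and 0.42). Apart from the fold threshold 47 of the 51 calls at 12 h and 45 of the 50 between DMSO at 24 h and 1 h were kept in every setting, against 3 of 14 at 6 h, 2 of 18 at 18 h and 0 of 5 at 24 h. The study's fold threshold left 0, 0, 7, 0 and 0 members at 1, 6, 12, 18 and 24 h, 0, 1, 4 and 0 for the changes of the effect from 1 h to 6 h, 6 h to 12 h, 12 h to 18 h and 18 h to 24 h, and 1 between DMSO at 24 h and 1 h. Upper-quartile factors gave 9 calls at 6 h and medians of -0.54 at 12 h and -0.30 at 18 h. Limma on log2(FPKM + 1) gave 0, 5 and 2 calls at 1, 6 and 24 h and 4 from 1 h to 6 h, and a 12 h median of -0.53. With log2(FPKM + 0.1) the counts were 0, 3, 6 and 0 at 1, 6, 18 and 24 h, 3 from 1 h to 6 h and 11 from 12 h to 18 h, and the 12 h median was -0.55. One fit to all 30 libraries gave 8 calls at 6 h, 40 at 18 h, 4 from 1 h to 6 h and 35 from 18 h to 24 h, and no filter gave 2 at 1 h. Shorter E2F forms (GGCGGG and GGCGCG) stood in 78.4% of member windows and in 68.5% of those of tested genes. A block for the replicate number gave 7 calls at 18 h and 11, 51 and 4 at 6, 12 and 24 h.

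Without each library in turn the count of called members at the 5 times in order was 1 to 1, 6 to 23, 50 to 51, 2 to 31 and 1 to 9, where *Gins4* was the 12 h call lost, and 7 to 14, 42 to 48, 15 to 24, 14 to 30 and 47 to 50 in the 4 changes of effect and the DMSO comparison. The 6 h count of 14 became 8, 23 and 9 without DMSO replicates 1, 2 and 3 and 6, 6 and 7 without C59 replicates 1, 2 and 3. The 18 h count of 18 became 3, 3 and 2 without DMSO replicates 1, 2 and 3, 4 without C59 replicate 2 and 31 without C59 replicate 3, and the 24 h count of 5 became 1 without each DMSO replicate, 3 without C59 replicate 2 and 9 without C59 replicate 3. Median log2 fold changes then ran from 0.01 to 0.02, -0.13 to -0.09, -0.66 to -0.58, -0.38 to -0.31 and 0.04 to 0.10 at 1, 6, 12, 18 and 24 h. The median of all tested genes moved to at most 0.10 at 12 h. The cause of these differences was not tested.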
